A study of Mus musculus with 96 samples.

Results

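The sulfation genes of mouse liver described here are 8 cytosolic sulfotransferase genes (Sult1a1, Sult1b1, Sult1c2, Sult1d1, Sult1e1, Sult2a2, Sult3a1 and Sult5a1) and Papss2, which supplies their cofactor. They are 9 of 18193 genes measured, taken by name, each read from the probe set that is annotated with that symbol alone and has the highest mean over all arrays. Liver RNA of CD-1 mice, an outbred stock, was measured on 96 arrays in 24 groups of 4, from both sexes after dietary exposure to PB lasting 2 or 7 days, with a daily dose of 150, 75, 15, 1.5 or 0.15 mg/kg or none (dose 0). All groups share the strain and tissue, and each dosed group is set against the dose 0 group that matches it in sex and day. The labels do not spell out PB, which in work on the receptor CAR commonly stands for phenobarbital, and the series title names CAR-mediated liver tumour formation as its subject. Doses are given in mg/kg-day as in the series design, whereas the titles of the samples name ppm; which is right was not settled. Whether each array is a separate mouse is not stated, so p-values measure the spread between these arrays.

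Sulfotransferases move a sulfonate group from the cofactor PAPS onto small molecules, which makes them more soluble in water and often ends their activity. PAPS is built from sulfate and ATP by PAPS synthases, of which Papss2 encodes one. In liver, sulfation acts on hormones, bile acids and drugs beside glucuronidation, and several sulfotransferases of rodent liver are known to differ between the sexes and to respond to CAR, a nuclear receptor that binds DNA with RXR as its partner.

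The start regions of the 5 members called at 150 mg/kg-day are shown first, since the results turn on these genes. Each is 300 bases long, 250 before and 50 after a RefSeq start site in GRCm38.p6, read 5′ to 3′ on the gene's strand; capitals mark matches on either strand to AGGTCA or AGTTCA, half-sites of nuclear receptors, and to TTCNNNGAA, the core letters bound by STAT proteins. For Papss2 the table lists 2 start sites; the second is shown, since the first holds none of these letters.
Sult1c2 (chr17:53845909-53846208, minus strand): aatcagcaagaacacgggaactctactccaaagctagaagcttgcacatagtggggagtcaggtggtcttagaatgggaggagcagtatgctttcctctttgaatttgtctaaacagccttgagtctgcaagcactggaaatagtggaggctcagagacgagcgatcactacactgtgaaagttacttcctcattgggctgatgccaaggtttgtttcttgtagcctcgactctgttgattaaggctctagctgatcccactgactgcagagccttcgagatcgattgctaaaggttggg
Sult1d1 (chr5:87568957-87569256, minus strand): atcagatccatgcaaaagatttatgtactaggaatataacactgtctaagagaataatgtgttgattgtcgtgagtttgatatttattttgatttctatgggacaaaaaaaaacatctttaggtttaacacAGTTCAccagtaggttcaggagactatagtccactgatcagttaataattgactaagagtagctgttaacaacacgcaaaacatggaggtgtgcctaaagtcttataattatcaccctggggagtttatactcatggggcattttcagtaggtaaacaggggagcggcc
Sult1e1 (chr5:87591562-87591861, minus strand): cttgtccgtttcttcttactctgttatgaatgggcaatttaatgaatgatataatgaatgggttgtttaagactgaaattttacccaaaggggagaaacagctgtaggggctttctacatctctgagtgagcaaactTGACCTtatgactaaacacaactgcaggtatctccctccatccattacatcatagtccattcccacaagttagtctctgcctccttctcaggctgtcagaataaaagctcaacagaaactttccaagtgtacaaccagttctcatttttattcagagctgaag
Sult3a1 (chr10:33857472-33857771, plus strand): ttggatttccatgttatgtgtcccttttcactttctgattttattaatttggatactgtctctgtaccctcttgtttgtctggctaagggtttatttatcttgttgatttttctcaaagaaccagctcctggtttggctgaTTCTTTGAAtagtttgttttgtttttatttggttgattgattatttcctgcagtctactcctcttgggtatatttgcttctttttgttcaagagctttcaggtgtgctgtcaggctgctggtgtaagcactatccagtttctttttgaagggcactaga
Papss2 (chr19:32619755-32620054, plus strand): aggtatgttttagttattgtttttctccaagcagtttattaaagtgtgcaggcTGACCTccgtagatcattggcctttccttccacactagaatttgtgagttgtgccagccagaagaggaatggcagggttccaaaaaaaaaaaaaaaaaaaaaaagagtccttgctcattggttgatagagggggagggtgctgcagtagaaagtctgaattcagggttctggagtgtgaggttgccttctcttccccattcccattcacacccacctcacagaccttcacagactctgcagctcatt

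Both strands were searched for AGGTCA and AGTTCA and for TTCNNNGAA, and for the paired form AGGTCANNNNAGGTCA with either half-site in either place, the spacing that CAR with RXR is known to bind; TATAAA was searched on the gene's strand. A match is a description of letters only. Sult1d1 holds AGTTCA at positions -119 to -114 from the start site, Sult1e1 holds AGGTCA on the opposite strand at -113 to -108, and Papss2 holds it there at -197 to -192 of its second start site. Sult3a1 holds TTCTTTGAA at -109 to -101, and Sult1c2 holds none of these letters. Sult1b1, which passed no test against dose 0, holds 4 half-sites at the first of its 2 start sites. No window of the 8 members in the table matched the paired form or TATAAA. Of all 32851 windows of this length, 16.3% hold AGGTCA, 14% AGTTCA, 8.3% TTCNNNGAA, 8.32% TATAAA and 0.0274% a paired form, so single half-sites are common. Sult1b1, Sult1d1 and Sult1e1 are direct neighbours on chromosome 5 in the same annotation.

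Values are on the log2 scale as the authors deposited them, with array medians between 5.34 and 5.44. Lower quartiles of the arrays lay between 3.91 and 4.09, and a level that low may be background alone, which makes a fold from it a lower bound. Levels of different genes come from different probes and are not set against each other. The mean of 10 hepatocyte markers was between 13.87 and 14.05 on every array at doses 0 and 150; on day 2 it was lower at 150 without overlap, 13.92 to 13.96 against 13.97 to 14.05 in females and 13.94 to 13.98 against 14.01 to 14.04 in males, and 1, 1, 2 and 0 of the 10 fell in females on day 2 and day 7 and males on day 2 and day 7. Cyp2b10, the classic CAR target, rose at 150 in all 4 combinations of sex and day. On males of day 2, replicate 1 at 15 had Cyp2b10 at 13.66, against 11.07 to 11.29 on the other arrays of its group, and replicate 1 at 75 had 10.98, against 13.19 to 13.36. Each of these arrays reads closer to the arrays of the other's dose than to its own group, so their labels may be exchanged. This was not tested, and both were kept as labelled. For males of day 2 at 15 and 75 against dose 0, member calls made with them are also given without them. The shares of all genes called there are given both ways too. In bulk liver, fewer cells of a type and less RNA per cell cannot be told apart.

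**Figure D1:**
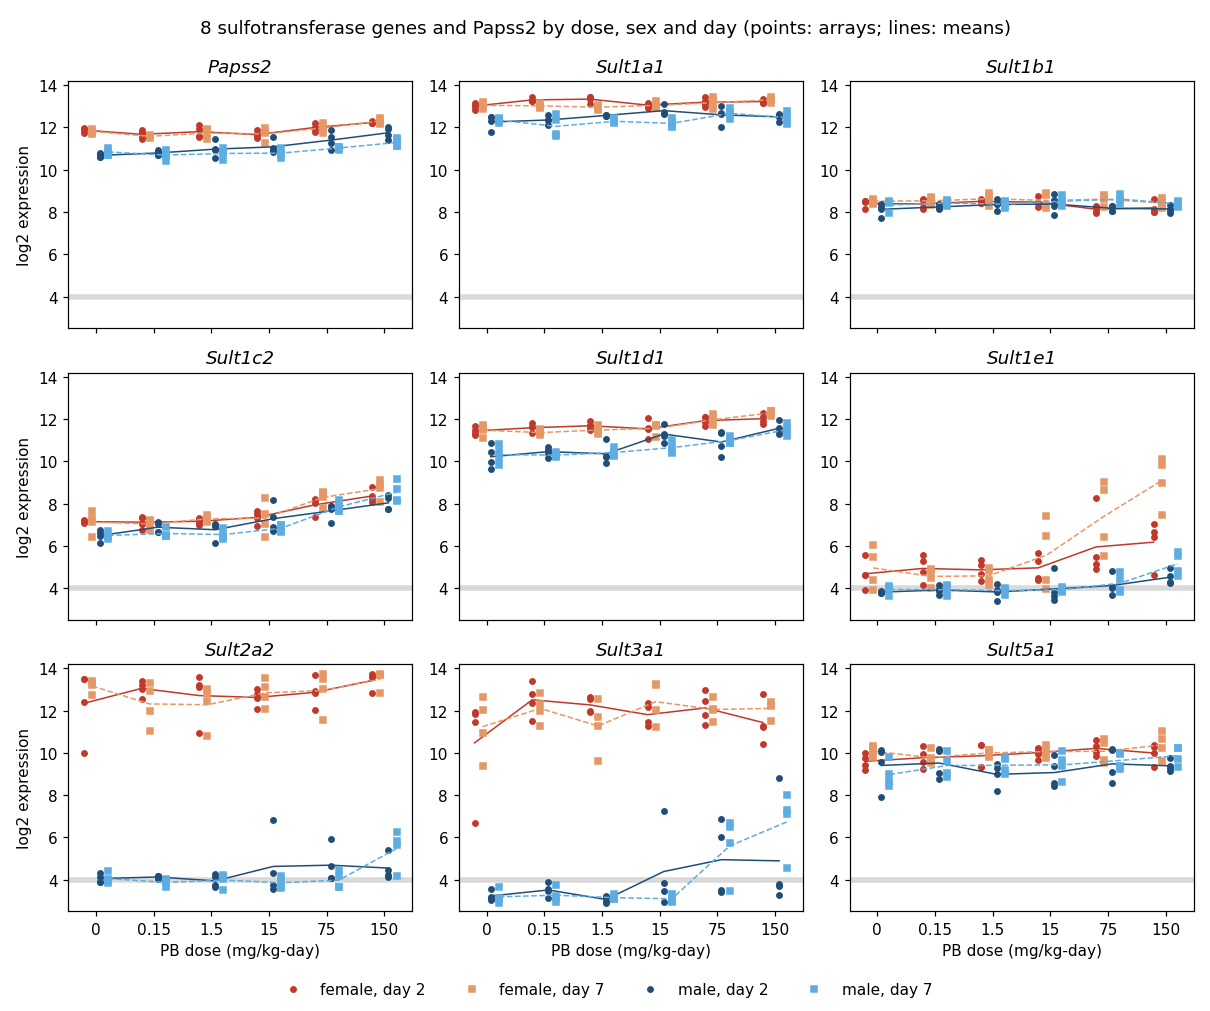
Expression of the 9 genes (log2, vertical axis) by PB dose (mg/kg-day, horizontal axis, evenly spaced); points are single arrays, lines join the means of 4 arrays, and the grey band spans the lower quartiles of the arrays, 3.91 to 4.09. Sult1c2 climbs at 75 and 150 in both sexes, Sult1e1 climbs furthest in females on day 7, and Sult2a2 and Sult3a1 are near 12 to 13 in most female arrays and near 3 to 4 in most male arrays.

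At 150 mg/kg-day against dose 0, Sult1c2 rose in both sexes on both days, Sult1d1 rose in females on day 7 and in males on both days, and Papss2 rose in males on day 2. Sult1e1 rose in females on day 7, and Sult3a1 rose in males on day 7. In counts, 1 of 9 members rose in females on day 2 and 3 of 9 in each other combination, and 0 fell. These calls are by limma's test with Benjamini-Hochberg adjustment over all genes. At an unadjusted p under 0.05, 5, 4, 4 and 7 were higher and 0 lower. Here and below, the share of all genes at the unadjusted threshold was not counted. Shares of all genes are at the adjusted threshold and are not a baseline for the unadjusted counts. Of all genes, 3.32% rose in females on day 2, 1.52% in females on day 7, 2.5% in males on day 2 and 2.2% in males on day 7, while 2.14%, 0.923%, 2.4% and 0.835% fell. In males on day 7 that split was 401 genes higher and 152 lower, and it was 400 and 309 after quantile normalization and 355 and 253 with each array centred on its median. The median log2 change of the 9 was 0.58, 0.49, 0.70 and 1.19 in that order, against -0.03, -0.02, -0.02 and 0.00 for all genes.

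Sult1c2, an enzyme of the 1C branch of the family, was the member that rose in all 4 combinations. In females on day 2 its controls read 7.16, 7.21, 7.10 and 7.13, and the arrays at 150 read 8.80, 8.36, 8.22 and 8.07. For females of day 7 the controls read 6.43, 7.33, 7.65 and 7.11 against 8.73, 8.90, 8.10 and 9.12. Every array at 150 lay above every control in both sets. In males the controls read 6.13, 6.48, 6.59 and 6.75 on day 2 and 6.44, 6.70, 6.52 and 6.32 on day 7. The male arrays at 150 read 7.74, 7.75, 8.39 and 8.27 on day 2 and 9.17, 8.19, 8.70 and 8.12 on day 7, again without overlap. The rises were 2.31-fold in females on day 2 (log2 change 1.21 ± 0.25, SE; limma adjusted p = 0.000453) and 2.99-fold on day 7 (adjusted p = 8.79e-06). In males they were 2.93-fold on day 2 (adjusted p = 9.82e-06) and 4.14-fold on day 7 (log2 change 2.05 ± 0.25; adjusted p = 4.95e-09). All 4 calls held under every alternative run.

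Sult1d1, which acts on catecholamines such as dopamine, and Papss2 both had lower levels in males than in females at dose 0, and both rose in males on day 2. Male controls of Sult1d1 read 9.95, 10.85, 10.43 and 9.64 on day 2 and 10.15, 10.48, 9.81 and 10.82 on day 7. At 150 the male arrays read 11.42, 11.30, 11.94 and 11.60 on day 2 and 11.60, 11.80, 11.22 and 11.39 on day 7. The groups did not overlap, and the rises were 2.54-fold (log2 change 1.34 ± 0.20; adjusted p = 1.95e-06) and 2.28-fold (adjusted p = 3.7e-05). Female Sult1d1 of day 7 went from 11.72, 11.49, 11.58 and 11.11 to 12.13, 12.30, 12.36 and 12.38. That rise was 1.76-fold (log2 change 0.82 ± 0.20; adjusted p = 0.0124), and it was not called without control replicate 4, the lowest of the 4, when the change was 0.70 and adjusted p = 0.0767. On day 2 the female arrays also did not overlap, with a change of 0.58 (95% interval 0.17 to 0.99) that was not called (adjusted p = 0.083; 0.0161 in a fit on the 48 female arrays). The second probe set of Sult1d1 gave changes of 0.63, 0.85, 1.39 and 1.34 in the order females on day 2 and day 7 and males on day 2 and day 7, close to the 0.58, 0.82, 1.34 and 1.19 of the first.

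Papss2 made its called move in males on day 2. The controls read 10.74, 10.60, 10.78 and 10.61 and the arrays at 150 read 11.40, 11.66, 12.02 and 11.93, with no overlap. The rise was 2.1-fold (log2 change 1.07 ± 0.15; adjusted p = 1.77e-07). The other changes were smaller: 0.35 in females on day 2, 0.49 in females on day 7 and 0.45 in males on day 7, each without overlap between the groups and each short of the threshold (adjusted p = 0.177, 0.0521 and 0.076). In females on day 2 the change was called with the mean of all probe sets (0.41; adjusted p = 0.0376) and with the probe set of largest variance (0.73; adjusted p = 0.007). Female arrays of day 7 at 0 read 11.70 to 11.94 and arrays at 150 read 12.17 to 12.47, and 6 of 18 alternatives called that rise, with adjusted p from 0.0173 to 0.171 over all 18. Of the 3 other Papss2 probe sets, 2 gave changes between 0.33 and 1.21 in these comparisons, and the last, with means between 3.74 and 4.05, was at background.

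Sult1e1 encodes the estrogen sulfotransferase, which inactivates estradiol. Its largest change was in females on day 7, where the controls read 6.05, 3.93, 5.48 and 4.38 and the arrays at 150 read 7.45, 8.99, 10.11 and 9.83. The lowest treated array stood above the highest control, and the rise was 17.6-fold (95% interval of the log2 change 3.06 to 5.21; limma adjusted p = 4.89e-08). The control at 3.93 lay within the background range, so the fold starts in part from background. At 75 on day 7 the arrays read 8.65, 6.42, 9.01 and 5.52, so that 1 of 4 overlapped the controls, and the change was 2.44 (adjusted p = 0.00893), or 3.07 without replicate 4 at 75. That call ended without control replicate 2 (adjusted p = 0.0859) and without replicate 1 (2.03; 0.0707) or 3 (1.91; 0.236) at 75. It was also lost in the fit on the 48 female arrays (adjusted p = 0.0993). The fit on the 2 groups alone did not call it either (adjusted p = 0.337). At 15 on day 7, arrays read 4.41, 7.43, 3.94 and 6.45: some females were high and others at the control level. On day 2 the females at 150 read 6.64, 7.05, 6.40 and 4.62 against 5.56, 3.92, 4.63 and 4.62, with overlap, and the change of 1.50 was not called (adjusted p = 0.0963); without replicate 4 at 150 it was 2.02 and called (adjusted p = 0.0171).

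In males Sult1e1 was near background at low doses, between 3.38 and 4.2 on the 24 arrays at 0, 0.15 and 1.5. All 8 male arrays at 150 lay above that range, at 4.96, 4.59, 4.28 and 4.24 on day 2 and 5.72, 5.53, 4.56 and 4.82 on day 7. The changes of at least 0.70 and 1.21 on the log2 scale were not called (adjusted p = 0.59 and 0.247). The limma fit shares one spread over all groups, and the females, whose control SDs were 0.67 and 0.98 against 0.04 and 0.21 in males, widen it. The males in turn narrow it for the female tests. In a fit on the 48 male arrays, chosen after these spreads were seen, the day 7 change was called (adjusted p = 0.00186) and the day 2 change was not (adjusted p = 0.0989). The fit on the 2 groups alone called the day 2 change (adjusted p = 0.0269).

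Sult3a1, which sulfates amines, and Sult2a2, of the branch that sulfates hydroxysteroids and bile acids, were abundant in females and at background in males at dose 0. Both belong to groups of closely similar genes, so a probe set may also read RNA of a near copy such as Sult3a2 or another Sult2a gene. Male Sult3a1 controls of day 7 read 3.13, 3.64, 3.10 and 2.91, and the arrays at 150 read 7.99, 7.12, 7.32 and 4.54. All 4 treated arrays were higher, by at least 11.7-fold on average (log2 change 3.55 ± 0.80; adjusted p = 0.00317; 0.00908 in the fit on male arrays). Over all alternatives the change ran from 3.13 to 4.28, and without replicate 4 at 150 it was at least 19.4-fold. At 75 on day 7 the arrays read 5.73, 6.48, 3.49 and 6.69, so that 3 of 4 were raised and 1 was not, and the change of at least 2.40 was not called (adjusted p = 0.278). On day 2 single arrays stood out instead of whole groups. At 150 the arrays read 3.69, 3.79, 8.82 and 3.28, at 75 they read 3.41, 6.02, 6.86 and 3.51, and at 15 they read 7.27, 3.85, 3.47 and 2.97. The array at 7.27 is the doubted replicate 1 at 15, and neither dose was called on day 2 (adjusted p = 0.281 at 150 and 0.427 at 75). Without the pair of doubted arrays adjusted p at 75 was 0.239, and the change at 15 was 0.20 in place of 1.16.

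No Sult2a2 change in males was called. At 75 on day 7 its mean was 3.98 against 4.06 in the controls, both at background. The highest of these arrays read 4.46, close to the highest control at 4.40. On day 7 the controls read 4.40, 4.05, 3.83 and 3.94 and the arrays at 150 read 5.83, 6.25, 5.66 and 4.17, where the last is also the array with the lowest Sult3a1. The change of at least 1.42 was not called (adjusted p = 0.127) and was called without that array, replicate 4 (1.86; adjusted p = 0.0394). In the fit on the 48 male arrays it was not called (adjusted p = 0.053). Of the 16 male arrays at 75 and 150, 10 were above every low-dose male array (0, 0.15 and 1.5) for Sult3a1. For Sult2a2 there were 8, and for both genes 6. The doubted array at 75 was in none of these counts. The cut for Sult2a2 was 4.40, and arrays at 4.45 (150, day 2, replicate 4) and 4.46 (75, day 7, replicate 3) lay just above it. The same count over all genes was not made, and whether both genes rose together was not tested. In females neither gene was called at any dose. Female Sult3a1 ranged from 6.68 to 13.41 over 48 arrays with a median of 12.00, and female Sult2a2 from 9.98 to 13.75 with a median of 13.02. The 2 lowest values are from a single array, control replicate 3 of day 2, which enters every female day 2 change against dose 0. Without it the Sult3a1 change at 150 on day 2 turned from 0.96 to -0.30. The Sult2a2 change there was 1.08 (limma unadjusted p = 0.0398; adjusted p = 0.274), and 0.29 at its lowest over all alternatives.

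**Figure D2:**
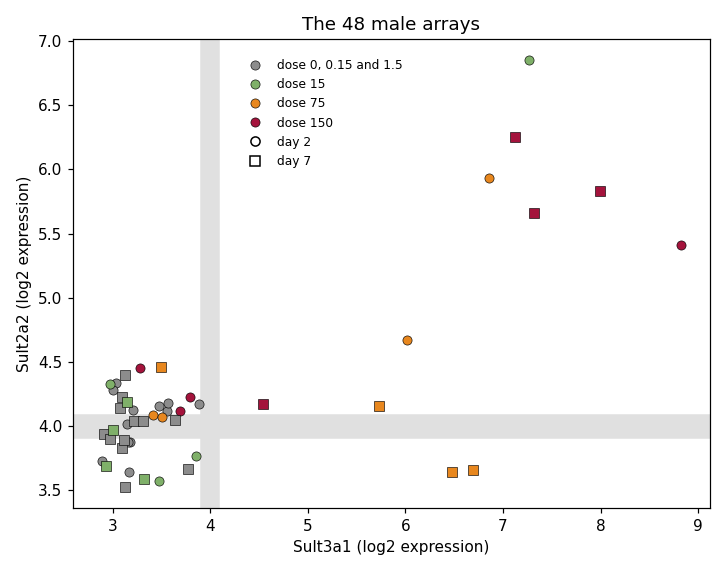
Sult2a2 (log2, vertical axis) against Sult3a1 (log2, horizontal axis) on the 48 male arrays, 1 point each, coloured by dose in mg/kg-day and shaped by day; grey bands span the lower quartiles of the arrays. Low-dose arrays sit in the lower left corner, at or below 4.40 on both axes. Above 4.40 on both axes lie 3 of the 4 arrays at 150 on day 7. On day 2, replicate 3 at 150, replicates 2 and 3 at 75 and the doubted array at 15 lie there too.

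Kupffer cell markers moved with the male day 7 results. The mean of 12 such genes ran from 8.58 to 9.24 on the arrays at 0 and from 9.45 to 10.02 at 150, and 3 of the 12 rose (Adgre1, Cd5l and Mpeg1). On day 2 in males the same mean ran from 9.01 to 10.24 at 0 and from 8.85 to 9.19 at 150, and 0 of 12 were called, while Sult1c2, Sult1d1 and Papss2 rose there too. In females on day 7 the mean ran from 9.22 to 9.52 at 0 and from 9.41 to 9.96 at 150, with 0 of 12 called by limma. Of 12 stellate cell markers, 3 fell in males on day 7 (Lrat, Reln and Dcn) and 1 in females on day 7 (Ecm1). Their means ran from 8.83 to 9.17 at 0 and from 8.54 to 8.92 at 150 in males on day 7, and from 9.07 to 9.23 and from 9.05 to 9.08 in females on day 7. On day 2 they were lower at 150 without overlap, from 9.04 to 9.23 against 8.90 to 9.0 in females and from 8.95 to 9.12 against 8.78 to 8.93 in males. Of 11 neutrophil and lymphocyte markers, S100a8 rose by 2.83 in females on day 2 and by 3.22 in males on day 7. Of 10 pancreatic acinar markers, Pnliprp1 rose in all 4 combinations, by 3.19 in females and 3.53 in males on day 7, and Cela1 fell in females by 0.81 and 0.80. Of 12 endothelial markers, 3, 0, 2 and 1 fell in the order females on day 2 and day 7 and males on day 2 and day 7, and of 8 cholangiocyte markers 0 were called. The part of these shifts in the sulfotransferase results was not tested.

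Sult1a1, the main phenol sulfotransferase, Sult1b1, which sulfates thyroid hormones and phenols, and Sult5a1 were not called against dose 0 at any dose, sex or day. Sult1a1 read 12.83 to 13.46 on the 48 female arrays and 11.59 to 13.10 on the 48 male arrays. Its changes at 150 were between 0.12 and 0.26, and the 95% interval in females on day 7 was -0.03 to 0.55. Sult1b1 read 7.94 to 8.91 in females and 7.74 to 8.86 in males. Its changes at 150 ran from -0.20 to 0.06, with a 95% interval of -0.51 to 0.10 in females on day 2, so that a rise of the size seen for Sult1c2 lay outside it. Sult5a1 spread more, from 9.21 to 11.03 in females and 7.91 to 10.25 in males. Its largest change was in males on day 7, from 9.79, 8.42, 9.02 and 8.68 to 10.25, 9.33, 9.69 and 10.22, an increase of 0.89 (95% interval 0.17 to 1.62) with overlapping groups that was not called (adjusted p = 0.184).

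Fewer members were called at the lower doses. At 75 mg/kg-day Sult1c2 was called in females on day 7 (2.24-fold; adjusted p = 0.00698) and in males on day 2 (2.25-fold; adjusted p = 0.00873) and day 7 (2.55-fold; adjusted p = 0.00077). Papss2 was called at 75 in males on day 2 (1.65-fold; adjusted p = 0.0047), as was Sult1e1 in females on day 7. In females on day 2, 0 members were called at 75 by limma and 4 had an unadjusted p under 0.05. At 75, 0.451% of all genes were called in females on day 2, 0.764% in females on day 7, 0.44% in males on day 2 and 0.247% in males on day 7. Without the pair of doubted arrays the share in males on day 2 was 0.715%. Of the member calls, that of Sult1c2 in males on day 7 held in every alternative run. Female Sult1c2 at 75 on day 7 was not called without control replicate 1 (0.93; adjusted p = 0.115) or replicate 3 at 75 (1.09; adjusted p = 0.074). In males on day 2 it was not called without control replicate 1 (1.05; adjusted p = 0.0735) or without replicate 2 or 3 at 75 (1.09 in both; adjusted p = 0.0584 and 0.0859), and Papss2 was not called without replicate 2 (0.56; 0.0836) or 3 (0.67; 0.06) at 75. Without the pair of doubted arrays both male changes on day 2 were larger, at 1.36 (adjusted p = 0.000517) for Sult1c2 and 0.88 (adjusted p = 6.06e-05) for Papss2. Sult1d1 at 75 in males on day 2 was not called (0.70; limma adjusted p = 0.121). Its arrays read 10.22, 11.37, 11.34 and 10.73, and the lowest is the doubted replicate 1. Its change without the doubted pair is not given here, so its order over the doses on day 2 is uncertain.

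At 15 mg/kg-day, 1 of 36 tests of members was called: Sult1d1 in males on day 2, from the controls given above to 11.79, 11.30, 10.88 and 11.20, a change of 1.07 (adjusted p = 0.00404). The first of these is the doubted array, and without the pair of doubted arrays the change was 0.91 and not called (adjusted p = 0.105). It was also not called without that array alone (adjusted p = 0.194), control replicate 1 (0.98; adjusted p = 0.065) or control replicate 4 (0.88; adjusted p = 0.19). Of all genes, 0.022% were called at 15 in females on day 2, 0.022% on day 7, and 0.0385% and 0.011% in males; without the doubted pair the share in males on day 2 was 0.0275%. At 1.5 and 0.15, 0 of 72 tests of members were called by limma and 5 had an unadjusted p under 0.05, 4 higher and 1 lower; over all genes 0% were called there, apart from 0.0055% in males on day 7 at 0.15. Between 75 and 150, 0 of 36 tests were called and 7 had an unadjusted p under 0.05, all higher at 150, among them Sult1e1 in females on day 7, with a difference of 1.69 (95% interval 0.62 to 2.77). In males on day 7, 2 members, Sult1d1 and Papss2, did not overlap between these doses. In females on either day and in males on day 2, 0 members were without overlap. The share of all genes without overlap was not counted, so no conclusion is drawn from these counts. A missed threshold alone does not show that the doses act alike. Of all genes, 1.33% and 0.055% were called between these doses in females on day 2 and day 7, and 0.148% and 0.126% in males.

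**Figure D3:**
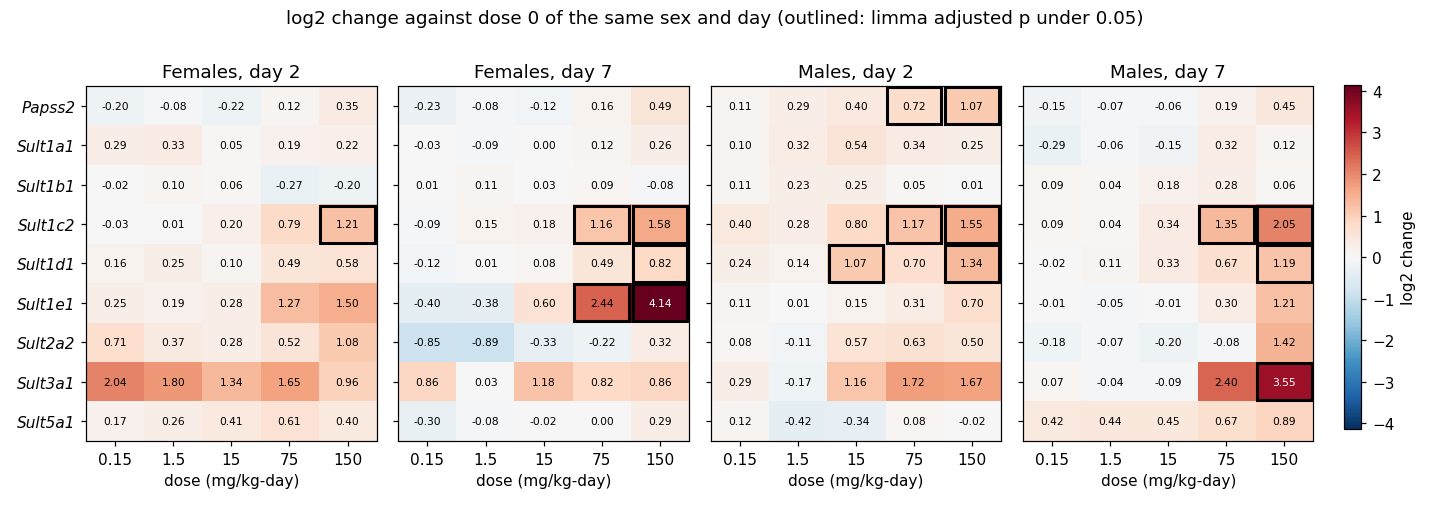
Log2 change of each gene from its matching dose 0 group (colour and printed value), by dose in mg/kg-day on the horizontal axis; black outlines mark limma adjusted p under 0.05. Outlined cells lie at 75 and 150 except Sult1d1 at 15 in males on day 2, and Sult1c2 is outlined at 150 in all 4 panels.

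The sexes differed at dose 0. On day 2, 5 of 9 members were lower in males, and on day 7, 6 of 9, while 0 were higher in males by limma or at an unadjusted p under 0.05. Of all genes, 1.09% were lower and 0.962% higher in males on day 2, and 4.63% and 2.08% on day 7. Sult2a2 and Sult3a1 were at background in control males, so both gaps are lower bounds and their order is not known. For Sult2a2 the 8 control females read 9.98 to 13.49 and the 8 control males read 3.83 to 4.40. The difference was at least 313-fold on day 2 (adjusted p = 1.29e-22) and at least 553-fold on day 7 (adjusted p = 4.34e-25). Sult3a1 read 6.68 to 12.63 in control females and 2.91 to 3.64 in control males, at least 151-fold and 264-fold lower (adjusted p = 1.46e-10 and 2.06e-12). Without female control replicate 3 of day 2 the day 2 bounds were 541-fold for Sult2a2 and 364-fold for Sult3a1, and without female control replicate 3 of day 7 the day 7 bound of Sult3a1 was 405-fold. Papss2 was 2.29-fold and 1.96-fold lower in males, Sult1d1 2.32-fold and 2.23-fold, and Sult1a1 1.69-fold and 1.63-fold, each called on both days with no overlap; the Sult1a1 call of day 2 was lost in the fit on the groups compared alone (adjusted p = 0.0506). Sult5a1 was called on day 7 only, at 2.15-fold lower (adjusted p = 0.0487), a call lost in 12 of 16 alternatives, among them leaving out any 1 of the 8 arrays except male replicate 1, with changes from -1.19 to -0.92 and adjusted p up to 0.16. The difference of Sult1c2, male minus female, was -0.66 and -0.63, and of Sult1b1 -0.27 and -0.18, with no call. For Sult1e1, at background in control males, the level was at least 1.83-fold and 2.02-fold lower, with no call. Sult5a1 on day 2 differed by -0.20, also with no call.

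Treated males were set against females at dose 0 to see how far the male rises reached the level of untreated females. The sexes at 150 were not tested against each other. At 150 on day 7, Sult1d1 read 12.13 to 12.38 in females and 11.22 to 11.80 in males. On day 2 its ranges at 150 were 11.79 to 12.31 and 11.30 to 11.94. Papss2 at 150 read 12.17 to 12.47 in females and 11.12 to 11.49 in males on day 7. For day 2 its ranges were 12.19 to 12.32 and 11.40 to 12.02. Sult1d1 in males at 150 differed from control females by 0.13 on day 2 (95% interval -0.28 to 0.54) and by 0.03 on day 7 (-0.38 to 0.44), and the groups overlapped. Papss2 in treated males differed by -0.13 (-0.42 to 0.17) on day 2 but was still lower on day 7, by -0.52 (adjusted p = 0.00992), with no overlap. Sult1c2 in treated males was above control females, 1.85-fold on day 2 (adjusted p = 0.0124) and 2.66-fold on day 7 (adjusted p = 2.11e-05); the day 2 call ended without male replicate 3 (0.77; adjusted p = 0.0572) or 4 (0.81; adjusted p = 0.0504) at 150. Sult3a1 in treated males remained lower on both days. On day 2, 3 of the 4 treated males were below the background range and 1, at 8.82, lay above the lowest control female, at 6.68; the difference was at least 47.7-fold, and at least 118-fold without that male, replicate 3, or 115-fold without that female, replicate 3. The day 7 difference was 22.6-fold, 13.6-fold without male replicate 4 and 34.6-fold without female replicate 3. Sult2a2 was 222-fold lower on day 2 (383-fold without female replicate 3) and 207-fold lower on day 7. The treated males read 4.12 to 5.41 on day 2 and 4.17 to 6.25 on day 7. The lowest of them were close to the background range, so these folds may be lower bounds. Sult1a1 also remained lower, 1.42-fold on day 2 (adjusted p = 0.0127) and 1.5-fold on day 7 (adjusted p = 0.00274); its day 2 call ended without female control replicate 1 (-0.46; adjusted p = 0.0579) or male replicate 4 at 150 (-0.43; adjusted p = 0.075). In counts, 3 members were lower and 1 higher on day 2, and 4 lower and 1 higher on day 7. Of all genes, 6.34% were lower and 3.87% higher on day 2, and 7.44% and 4.99% on day 7.

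**Figure D4:**
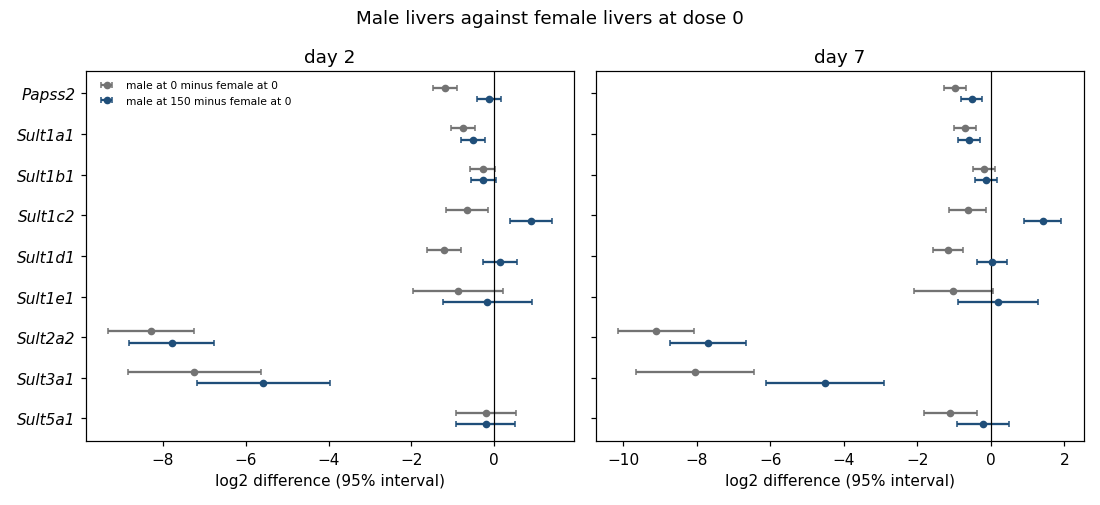
Log2 difference of male livers from female livers at dose 0 (horizontal axis, with 95% intervals from limma) for each gene, with males at dose 0 in grey and males at 150 mg/kg-day in blue, by day. Sult1d1 moves from below 0 to an interval that holds 0 on both days, Sult1c2 moves above 0, and Sult2a2 and Sult3a1 stay far below 0.

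No difference between the responses themselves passed the test. Over 36 tests of members (sexes on each day, days in each sex), 0 were called by limma, and 6 had an unadjusted p under 0.05. The response of Sult1e1 at 150 on day 7 differed between males and females by -2.92 (95% interval -4.44 to -1.40; adjusted p = 0.215), where male controls at background make the male response a lower bound, and in females it was larger on day 7 than on day 2 by 2.64 (1.12 to 4.16; adjusted p = 0.0835). Papss2 responded more in males than in females on day 2 by 0.72 (0.30 to 1.13; adjusted p = 1), and in males less on day 7 than on day 2, by -0.62 (-1.03 to -0.20; adjusted p = 0.241). A rise called in one sex or on one day and not in the other is therefore not shown to differ between them. Of all genes, 0.0055% differed in response between the sexes on day 2 and 0.0879% on day 7, and 0.874% of genes differed between the days in females and 0.132% in males.

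Other genes of the sulfation pathway are given as counts, to be read against the shares of all genes called at 150. Of 5 other cytosolic sulfotransferase genes measured, 0 rose in any comparison at 150 and 1 fell, Sult2a8, which acts on bile acids in mouse liver: 12.86 to 12.43 in females on day 2 (adjusted p = 0.000367) and 13.03 to 12.67 in males on day 2 (adjusted p = 0.00562). Of 9 genes for PAPS supply, transport and breakdown beside Papss2, 1 rose: Bpnt1, which breaks down the spent cofactor, by 0.35 in females on day 2 (adjusted p = 0.00256). Among 11 genes of sulfite and sulfate production, 0 rose, and Cbs, which starts the conversion of homocysteine to cysteine, fell in all 4 combinations, by 0.54 and 0.62 in females on day 2 and day 7 and by 0.32 and 0.45 in males. Cdo1, which oxidizes cysteine on the way to sulfate, fell on day 2 by 0.32 in females and 0.26 in males.

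Sulfatases and Golgi enzymes had few calls. Of 12 genes of sulfatases and their activation, 1 fell on day 2 in each sex: the lysosomal Ids, by 0.47 in females and 0.39 in males. Of 21 Golgi sulfotransferases, Chst15, which acts on chondroitin sulfate, fell on day 2 by 0.34 in females and 0.38 in males, and Tpst2, a protein-tyrosine sulfotransferase, fell by 0.50 in females on day 7. Of 15 enzymes of steroids and bile acids, 5, 3, 3 and 1 fell and 1, 0, 2 and 2 rose in the order females on day 2 and day 7 and males on day 2 and day 7. Hsd17b6, a hydroxysteroid dehydrogenase, fell in all 4 combinations, by 0.91 to 1.17. Hsd3b2 fell in 3 of the 4 combinations, by 1.39 in females on day 2, and Hsd3b5 fell by 2.01 and Cyp8b1, which makes cholic acid, by 1.12 in females on day 2.

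Of 19 nuclear receptors and other regulators of these genes, Ahr rose in all 4 combinations, by 0.55 and 0.85 in females and 0.71 and 0.73 in males on day 2 and day 7. Ppara, the receptor of fatty acids, fell in all 4, by 0.55 to 0.70. Nr1i3, which encodes CAR, fell by 0.86 in males on day 7 (adjusted p = 0.00474). Stat5b, a transcription factor of growth hormone signalling, fell by 0.43 in females on day 2. Of 8 CAR marker genes, 6 rose in each combination. Among 17 female-biased liver genes, 3 of which are members here, 13 were lower in males at dose 0 on each day; at 150, 1, 2, 2 and 4 rose in the order females on day 2 and day 7 and males on day 2 and day 7. Beside the members, these were Prom1 in all 4 combinations, Cyp2b9 in males on day 2 (4.56-fold), and Cyp2b13 (4.69-fold) and Hao2 (4.75-fold) in males on day 7. Among 16 male-biased genes, 2, 1, 0 and 1 rose and 1, 2, 1 and 0 fell in the same order; Elovl3, which lengthens fatty acids, rose in females by 1.54 and 2.31.

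Over the 24 group means, the genes most like each called member were found by Pearson's r, as a description, since the points share sex, dose and controls. Without the pair of doubted arrays 12 of the 15 genes were still among the 3 most like, all but Gstt3, Rsph4a and Dhrs7, and r was at least 0.927 for all 15. Sult3a1 was most like Cyp2b13 (r = 0.985), Sult2a2 (0.983) and Rsph4a (0.977), which encodes a radial spoke protein of cilia and is the next gene to Sult3a1 on chromosome 10 in RefSeq. Rsph4a had means of 4.80 and 5.32 in control females and 2.98 on both days in control males, and its male means at 150 were 3.61 and 3.48, still below the background range. Sult1d1 was most like Lect2 (0.955), Papss2 (0.945) and the glutathione transferase gene Gstt3 (0.94). Papss2 was most like Cbr1, a carbonyl reductase gene (0.962), Dhrs7 (0.952) and BC052688 (0.952). Sult1c2 was most like the NAD kinase gene Nadk (0.947), Nmt2 (0.943) and Pdxdc1 (0.941). Sult1e1 was most like Inf2 (0.943), Nrg4 (0.94) and Ttc39b (0.927), and Nrg4, a growth factor of the neuregulin family, rose 2.59-fold in females on day 7 (adjusted p = 0.000342).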

How the data were processed

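The deposited table holds log2 values that the authors had normalized between arrays; the method and a genome build are not given in the sources used here. Per the labels' protocols, RNA was extracted with Trizol and labelled with the Enzo system. Of 45101 probe sets, 64 controls, 932 with several gene symbols and 9160 with none were set aside, which left 18193 genes, each read from its probe set with the highest mean. limma 3.58.1 under R 4.3.3 estimated the 24 group means from the 96 arrays together (72 residual degrees of freedom), and tests were two-sided. P-values of each comparison were adjusted by the Benjamini-Hochberg method across all 18193 genes; "rose", "fell" and "called" mean an adjusted p under 0.05. Arrays give no counts, so their number, 4 per group, limits the precision. The members and gene lists were chosen with earlier results of these data known. Named genes are the 9 members, up to 4 called genes of each other list by size of change at 150, the 3 genes most like each called member, and Cyp2b10. Sequences are RefSeq's for GRCm38.p6; Sult2a2 had no window. Alternatives were another normalization or centring, a filter on dim genes, other probe sets, another variance prior, array weights, smaller fits, a replicate block and leaving out arrays. The procedure was tested on simulated data. Figures were drawn with matplotlib 3.10.9.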

Additional observations from a re-analysis of the deposited data

Results flagged for a closer look

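In 14 of 216 groups of 4 arrays (9 genes in 24 groups), 1 array lay far from the other 3 relative to the range of the group; chance gives such a gap in about 5% of groups. Among them was Sult3a1 in females at 0 on day 2, where the lowest array read 6.68 and the next 11.45, as was Sult3a1 in males at 150 on day 2, where the highest read 8.82 and the next 3.79. For Sult1e1 the highest array of females at 75 on day 2 read 8.25 and the next 5.49, and the highest of males at 0 on day 2 read 3.87. For Sult2a2 the lowest arrays read 10.95 in females at 1.5 on day 2, 12.82 in females at 150 on both days, and 4.02 in males at 0.15 on day 2. Sult1c2 was lowest at 6.12 in males at 1.5 on day 2 and highest at 6.91 in males at 0.15 on day 7. Sult1d1 was lowest at 11.15 in females at 15 on day 7. Sult1b1 was lowest at 8.13 in females at 0 on day 2 and at 7.95 in males at 0 on day 7, and Sult1a1 was highest at 13.44 in females at 0.15 on day 2.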

How the results depend on the processing

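Over all alternatives, the count of members that rose at 150 ran from 2 to 4 in females on day 7 and from 3 to 4 in males on either day, around 3, and the count that fell stayed at 0. In females on day 2 the count of 1 became 2 with the mean of all probe sets, the probe set with the largest variance or the fit on the arrays of one sex, 3 with array weights, and 1 to 2 when single arrays were left out. At 75 in females on day 7 the count of 2 became 0 in the fit on the 2 groups alone, 1 in the fit on one sex, and 0 to 2 without single arrays. At 75 in males on day 2 it went from 2 to 0 in the fit on the 2 groups alone, and 0 to 2 without single arrays; on day 7 it went from 1 to 2 with array weights. The 1 call at 15 in males on day 2 became 0 in both smaller fits and without the 2 doubted arrays, and 0 to 1 without single arrays. The 1 member higher in treated males than in control females on day 2 ranged from 0 to 1. Counts of called response differences ranged from 0 to 1 without single arrays, for the sexes on day 7 and for the days in females. Changes near 0 turned sign: Sult1b1 in males on day 2 was -0.01 with array weights and from -0.12 to 0.10 without single arrays, and on day 7 from -0.07 to 0.12; Sult5a1 in males on day 2 was 0.03 after quantile normalization and from -0.52 to 0.22 without single arrays; Sult3a1 in females on day 2 ranged from -0.30 to 1.44. No clear pairing by replicate number was seen, though it was not excluded: deviations of same-numbered arrays correlated between -0.248 and 0.377. On day 7 their median was 0.034 in females and 0.032 in males, against -0.017 and -0.015 for arrays of different number. On day 2 it was -0.002 and 0, against -0.003 in both sexes. With the replicate block 1, 3, 3 and 3 members rose at 150. The cause of these shifts was not tested, beyond the fewer arrays in the smaller fits. Leaving single arrays out moved the number of all genes called at 150 from 994 to between 601 and 1049 in females on day 2, from 445 to between 244 and 402 on day 7, from 892 to between 551 and 833 in males on day 2 and from 553 to between 310 and 617 on day 7. The lowest values came without replicate 2 at 150, control replicate 1, control replicate 1 and replicate 1 at 150, in that order. In the fit on the 2 groups alone 341, 257, 526 and 146 genes were called, and with array weights 681 in females on day 7. Signal limits Sult1e1, Sult2a2 and Sult3a1 in males, whose controls were at background. It also limits Sult1e1 in females in part, since 6 of 8 control females were above the background range.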
